A study of Mus musculus with 29 samples.

Results

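Ly6C-low macrophages of 2 organs of the same mutant mouse strain, the liver and the spleen, were compared. The comparison used 7 of the 29 RNA-seq libraries of the series: 3 libraries of hepatic and 4 libraries of splenic Ly6C-low macrophages, all from Rnaset2-/- mice. These mice carry a constitutive deletion of Rnaset2a and Rnaset2b, the pair of mouse genes that encode RNase T2, and the cells of both organs share it. The mice received no treatment, and the age and sex of the animals behind each library are not given in the sources used here. Libraries were chosen by their labels alone, and the genes tested were the autosomal genes with a level of at least 1 RPM (reads scaled to the total of the library) in at least 3 of the 7 libraries, which left 10182 of 21920 autosomal genes of the deposited table. Wild-type Ly6C-low macrophages of liver and spleen, Rnaset2-/- Ly6C-high macrophages of both organs (3 libraries each) and wild-type Kupffer cells (KCs, 4 libraries) were used for reference.

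RNase T2 is an endosomal enzyme that degrades RNA taken up by the cell, and RNA-sensing Toll-like receptors reside in the same compartment. Ly6C-low cells of the spleen and blood are non-classical monocytes that patrol vessels and depend on the nuclear receptor Nr4a1. KCs are the resident macrophages of the liver sinusoid: when they are replaced by incoming monocytes, Notch and TGF-beta family signals from sinusoidal endothelial and stellate cells induce the nuclear receptor LXRα (Nr1h3) and Id3, which maintain the KC gene program. The comparison addresses how far Ly6C-low cells of the same genotype differ with the organ they reside in.

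The labels of both organs give the cells as Ly6C-low cells positive for CD11b and Fcgr4 and negative for Ly6G, SiglecF and NK1.1. The study's methods state the exclusion of Ly6G and NK1.1 for the spleen sort only and do not mention SiglecF. By those methods the spleen cells were first depleted of lymphocytes, granulocytes and erythroid cells, and the liver gate included F4/80, so the sort itself differed between organs. Levels of Itgam, Fcgr4 and Adgre1, which encode CD11b, the Fcgr4 receptor and F4/80, are therefore descriptions of the gate. Fcgr4 was at 2577, 4451 and 3118 RPM in liver replicates 1 to 3 and at 3394, 3231, 4238 and 4635 RPM in spleen replicates 1 to 4, overlapping ranges (log2 fold change, liver minus spleen, -0.19 ± 0.26 SE, adjusted p = 0.601). All 10 monocyte and macrophage markers were above the filter, 4 higher in liver and 3 lower, with a summed level of 7740 to 14540 RPM in liver and 16400 to 18510 RPM in spleen. Rnaset2a, Rnaset2b and the Ly6c genes were not analysed here, so the deletion and the Ly6C gate were not checked at the RNA level. The libraries held 12850522 to 13060965 reads (liver) and 14059645 to 14193723 reads (spleen), so 3 reads corresponded to 0.230 to 0.233 RPM in liver and 0.211 to 0.213 RPM in spleen. These floors cover counting error only.

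Several libraries stood apart. Xist, the RNA of the inactive X chromosome, had no reads in the 3 liver libraries and 0.781 RPM in spleen replicate 2, but was at 611 to 744 RPM in spleen replicates 1, 3 and 4, while Y-linked genes summed to 199 to 301 RPM in the 4 libraries without Xist. Organ and the sex of the source animals are thus confounded except through spleen replicate 2. Spleen replicates 1 and 2 held far more granulocyte RNA than spleen replicates 3 and 4: 15 neutrophil and granulocyte precursor markers summed to 43880, 24430, 4666 and 3694 RPM in spleen replicates 1 to 4, that is 4.39%, 2.44%, 0.467% and 0.369% of reads, against 8.27 to 26.8 RPM in the liver libraries. Liver replicate 1 differed from liver replicates 2 and 3 in its MHC class II genes. Whether replicates came from separate mice is not stated, so p-values measure the spread between these samples. In bulk libraries, fewer cells of a type and less RNA per cell cannot be told apart.

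Ly6C-low macrophages of the liver and the spleen differed over a broad part of the transcriptome. At a difference of more than 1.5-fold and an adjusted p below 0.05, 1878 genes were higher in liver (18.4% of those tested) and 1797 were lower (17.6%). Of these, 454 were higher and 383 lower by more than 4-fold. The lowest liver library was above the highest spleen library for 2176 genes (21.4%), and the highest liver library was below the lowest spleen library for 2459 genes (24.2%). The median log2 fold change over all tested genes was -0.0019. Of all tested genes, 214 were under 1 RPM in every spleen library and 236 in every liver library. They passed the filter through the other organ alone, so their direction was fixed by the filter. With the presence of Xist as a covariate, 583 genes were higher and 539 lower, and when liver was compared with the single spleen library without Xist, 414 were higher and 351 lower. Sex and organ could be separated only through that 1 library. Of the 132 genes named by a fixed rule that were called, 81 kept the call with the covariate. Of the 51 that lost it, those described or mentioned below as higher in liver are Abca1, Anln, Bst2, Cd72, Cd79b, Ctsl, Cxcl9, Dcn, Dhcr7, Fcrl5, Folr2, Gas6, Hebp1, Hsd17b7, Ifi30, Ltbp4, Slc40a1, Smad7, Timd4, Tlr9, Wdr76 and Xcr1. Those given below as lower are Ace, C5ar1, Car2, Ctse, Cx3cr1, F13a1, Fcgr2b, Il10, Itga4, Itgb3, Lyz2, Nr4a1, Pdgfrb, Pla2g7, Rangap1, Runx2, Slbp, Tmpo and Usp1. When spleen replicates 1 and 2 were left out, a choice made after their granulocyte RNA had been seen, 1804 genes were higher and 1723 lower.

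**Figure D1:**
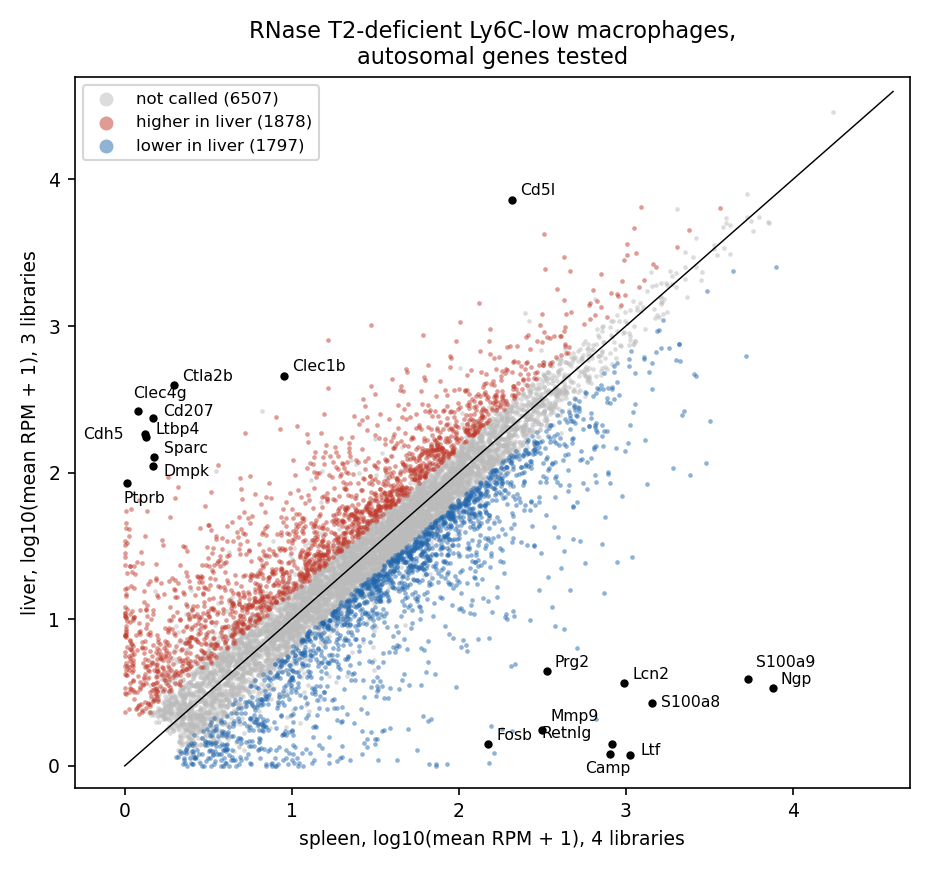
Mean level of each tested autosomal gene in spleen (x axis) and liver (y axis) Ly6C-low macrophages of Rnaset2-/- mice, as log10(mean RPM + 1), with 1878 genes called higher in liver in red, 1797 called lower in blue and the diagonal as equal means. Black points name the 10 genes with the largest difference in each direction; granulocyte genes such as Ngp and S100a9 lie at the lower right, and Cd5l lies highest among the labelled genes of the liver side.

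The 10 genes with the largest higher level in liver were Cd207, Ctla2b, Clec4g, Cdh5, Dmpk, Ltbp4, Sparc, Clec1b, Ptprb and Cd5l. Cd207, which encodes the C-type lectin langerin, was at 189.8, 318 and 193 RPM in the 3 liver libraries and at 1.42, 0.426, 0 and 0.07 RPM in the 4 spleen libraries, a log2 fold change (liver minus spleen, as for all values given so) of 7.39 ± 0.33 (SE; adjusted p = 2.38e-05). The spleen values were at or near the floor in replicates 2 to 4. Cd5l, a secreted scavenger protein of tissue macrophages and an LXR target, was at 9639, 6753 and 5478 RPM in liver and 431, 173, 87.4 and 138 RPM in spleen (5.38 ± 0.45, adjusted p = 0.00016). Ctla2b, a gene of the cathepsin inhibitor family, was at 830.3, 114 and 235 RPM against 1.14, 0.994, 0.851 and 0.916 RPM (7.19 ± 0.57, adjusted p = 0.000134). Dmpk, a serine/threonine kinase, was at 206, 77.6 and 48.2 RPM against 0.213, 0.213, 0.709 and 0.775 RPM (6.01 ± 0.44, adjusted p = 0.000106). The 10 genes were chosen among those whose libraries did not overlap between organs, so their lack of overlap was fixed by the choice.

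Clec4g, Cdh5, Ltbp4, Sparc and Ptprb are also expressed by endothelial or stromal cells, and their levels varied widely among the liver libraries. Clec4g, a lectin of sinusoidal endothelium, was at 48.1, 84.8 and 656 RPM in liver and at 0, 0.568, 0 and 0.211 RPM in spleen, with the highest value in liver replicate 3. Ptprb and Ltbp4 followed the same order, at 13, 34.3 and 206 RPM and 13.1, 70.3 and 462 RPM in liver, whereas Cdh5, the junction protein VE-cadherin, was highest in liver replicate 1 (287, 44.4 and 189 RPM). Of 15 sinusoidal endothelial markers 14 passed the filter, and 8 of these were under 1 RPM in every spleen library, so that they could only be higher in liver. Among the 14, 12 were called higher and 1 lower. The lower one was Fcgr2b, the inhibitory IgG receptor (27, 3.35 and 4.36 RPM against 56.6, 73.9, 107 and 122 RPM). Without Pecam1, which was at 1456 to 2195 RPM in spleen and 996 to 3016 RPM in liver, the markers summed to 309, 371 and 1655 RPM in liver replicates 1 to 3, to 99.4 to 162 RPM in spleen and to 3503 to 8421 RPM in wild-type KCs. In every spleen library 7 of the 15 markers were at or under 3 reads. Their part in the liver values of these 5 genes was not tested. The endothelial calls fell from 12 to between 3 and 4 when any 1 liver library was left out, since a gene absent from spleen then had fewer than 3 libraries above the filter. The call of Ltbp4 did not hold with Xist as a covariate (log2 fold change 6.02, adjusted p = 0.0523).

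KC identity genes were higher in liver. Of 31 genes in the list, 30 were autosomal and all 30 were tested. Of these, 20 were higher in liver (66.7%, against 18.4% of all genes tested), none was lower, and the median log2 fold change was 3.03. Among the 30, 2 were under 1 RPM in every spleen library, so they could only be higher. With Xist as a covariate 13 were higher, as they were against the spleen library without Xist. Clec4f, the lectin that marks KCs, was at 63.3, 17.7 and 53.1 RPM in liver, whereas spleen replicate 1 had 0.071 RPM and the other spleen libraries had 0. The liver mean was at least 210.2-fold higher than the floor of 3 reads (log2 fold change 5.32 ± 0.42, adjusted p = 0.000134). That liver level compared with 4197 ± 1709 RPM (SD, n = 4) in wild-type KCs and 8.09 ± 6.07 RPM (n = 3) in wild-type hepatic Ly6C-low macrophages. Clec1b, the podoplanin receptor CLEC-2, was at 294, 402 and 679.7 RPM in liver and 9.6, 10.6, 4.61 and 6.97 RPM in spleen (5.68 ± 0.34, adjusted p = 5.39e-05). KCs had 489 ± 128 RPM. Timd4, a receptor for phosphatidylserine on long-lived resident macrophages, was at 66.8, 10.04 and 13 RPM against 3.84, 1.06, 0.709 and 2.75 RPM (2.98 ± 0.64, adjusted p = 0.00769), below 365 ± 133 RPM in KCs. Its call did not hold with Xist as a covariate (3.44, adjusted p = 0.0714).

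Among the other named members of the list, Folr2, a folate receptor of resident macrophages, was at 62.9, 5.53 and 23.1 RPM in liver and 3.48, 1.42, 0.071 and 0 RPM in spleen. Il18bp, the decoy that binds IL-18, was at 708, 262 and 167 RPM against 24.5, 8.23, 12.1 and 17 RPM. Both were called (3.59 ± 0.79, adjusted p = 0.0087, and 4.39 ± 0.49, adjusted p = 0.000496), but Folr2 was not with Xist as a covariate (3.2, adjusted p = 0.144). Cd163, the hemoglobin-haptoglobin receptor, was low in both organs (3.54, 0.156 and 1.3 RPM against 3.48, 1.63, 1.56 and 2.68 RPM) while KCs had 458 ± 197 RPM. Spic, which directs iron-recycling macrophages, overlapped between organs (203, 114 and 62.6 RPM against 132, 48, 49.2 and 68.6 RPM, adjusted p = 0.196). The X-linked KC gene Vsig4, a complement receptor, lies outside the autosomal rule and was at 102 to 226 RPM in liver and 0.284 to 2.42 RPM in spleen (exact permutation test, two-sided, p = 0.0571, the smallest that 3 against 4 libraries allow). The list summed to 11480 to 19230 RPM in hepatic Rnaset2-/- Ly6C-low macrophages and 992 to 1947 RPM in their splenic counterparts. Wild-type hepatic Ly6C-low macrophages had 1554 to 2188 RPM. KC replicates 1 to 4 had 26990, 28950, 11730 and 28440 RPM, so all but replicate 3 were above the Rnaset2-/- liver libraries. Much of the liver sum was Cd5l.

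**Figure D2:**
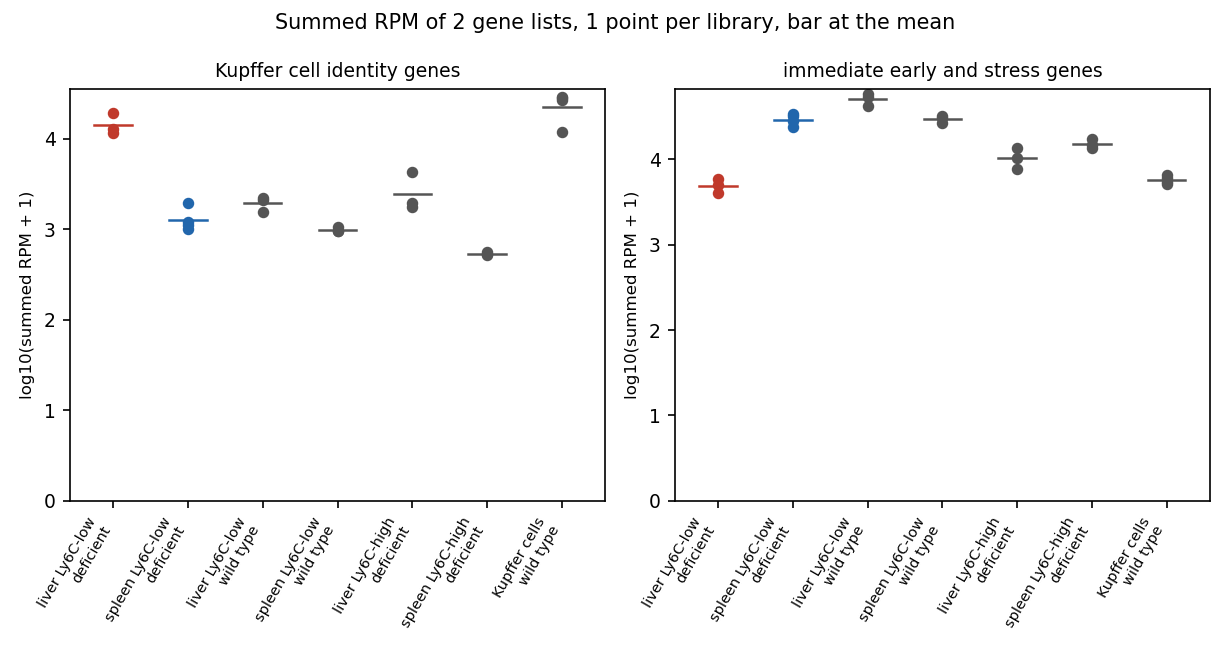
Summed RPM of the KC identity genes (left) and of the immediate early and dissociation stress genes (right) on a log10 axis, with 1 point per library and a bar at the mean of each of 7 groups. In hepatic Rnaset2-/- Ly6C-low macrophages (red) the KC genes summed to 11480 to 19230 RPM. KC replicates 1 to 4 had 26990, 28950, 11730 and 28440 RPM, so all but replicate 3 lay above the red points. The immediate early genes summed to 4045 to 5870 RPM in the red group and 5172 to 6562 RPM in KCs. The red points lay below every library of splenic Rnaset2-/- Ly6C-low macrophages (blue) for these genes.

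The transcription factors Nr1h3, Rxra, Id3 and Maf were higher in liver, while lineage factors as a list were more often lower. Nr1h3 was at 589, 1024 and 773 RPM in liver and 143, 78.9, 70.1 and 88.3 RPM in spleen (3.1 ± 0.25, adjusted p = 0.000135). Its dimer partner Rxra was at 836, 671 and 877 RPM against 153, 159, 124 and 168 RPM (2.42 ± 0.18, adjusted p = 0.000106). The liver level of Nr1h3 was above the KC mean of 247 ± 63.2 RPM in each library, and that of Rxra was below the KC mean of 879 ± 149 RPM. Id3, an inhibitor of basic helix-loop-helix factors, was at 218, 415 and 527 RPM against 27.5, 54.3, 41.9 and 52.1 RPM (3.09 ± 0.36, adjusted p = 0.00054). The factor Maf was at 469.7, 426 and 632 RPM against 82.1, 38.7, 30.4 and 38.6 RPM (3.51 ± 0.31, adjusted p = 0.000169). Spi1, which encodes the macrophage factor PU.1, did not pass (-0.15, adjusted p = 0.642). Of 36 macrophage lineage factors tested, 5 were higher (13.9%, against 18.4% of all genes), namely Irf8 beside the 4 higher factors above. In the other direction 11 were lower (30.6%, against 17.6% of all genes), and the median was 0.21. Those lower included Klf4 and Nr4a1, described with the monocyte genes, and Nfil3 (26.3, 17 and 15.5 RPM against 137, 136, 238 and 231 RPM, -3.13 ± 0.30, adjusted p = 0.000236).

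Of 27 LXR target genes tested, 15 were higher in liver (55.6%) and 1 lower (Smpdl3a), with a median of 1.19. Lpl, the lipase that releases fatty acids from lipoproteins, was at 794, 1540.0 and 726 RPM in liver and 48.4, 15.4, 25.5 and 26.6 RPM in spleen (5.15 ± 0.37, adjusted p = 9.65e-05). The cholesterol exporter Abca1 was at 230.0, 92.7 and 81.8 RPM against 52.4, 37.4, 58.6 and 50.2 RPM (1.31 ± 0.35, adjusted p = 0.0185). Its highest value was in liver replicate 1, and its call was lost without spleen replicate 2 (1.17, adjusted p = 0.0526). Abcg1 and Mylip, which encode a further sterol exporter and a ligase that degrades the LDL receptor, differed little between organs and did not pass (409, 568 and 401 RPM against 362, 326, 376 and 398 RPM, adjusted p = 0.137, and 67.4, 99.1 and 93.6 RPM against 56.8, 80.1, 113 and 101 RPM, adjusted p = 0.921). Of 31 lipases and lipid handling genes, 9 were higher and 7 lower. Lipg, an endothelial-type lipase that macrophages can also express, was at 74.8, 264 and 146 RPM against 17.4, 13.7, 8.44 and 6.27 RPM (3.65 ± 0.43, adjusted p = 0.000577), while KCs had 0.291 ± 0.276 RPM. The lysosomal lipase Lipa was at 561, 598 and 557 RPM against 151, 184, 246 and 266 RPM (1.49 ± 0.24, adjusted p = 0.00205). Dgat2, which makes triglyceride, was lower at 3.23, 1.09 and 1.38 RPM against 57.2, 33.7, 33.3 and 22.1 RPM (-3.66 ± 0.34, adjusted p = 0.000211). The 7 lower calls fell to between 3 and 4 without spleen replicate 2, 3 or 4 or without liver replicate 2 or 3. Of 20 sterol synthesis and uptake genes, 4 were higher (Dhcr7, Stard4, Tm7sf2 and Hsd17b7) and 1 lower, with a median of 0.20. The higher share of 20% was near the 18.4% of all genes, and the lower share was 5%. The 4 higher calls fell to 2 without liver replicate 2 or 3, and that of Hsd17b7 was lost without any 1 of 5 libraries.

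**Figure D3:**
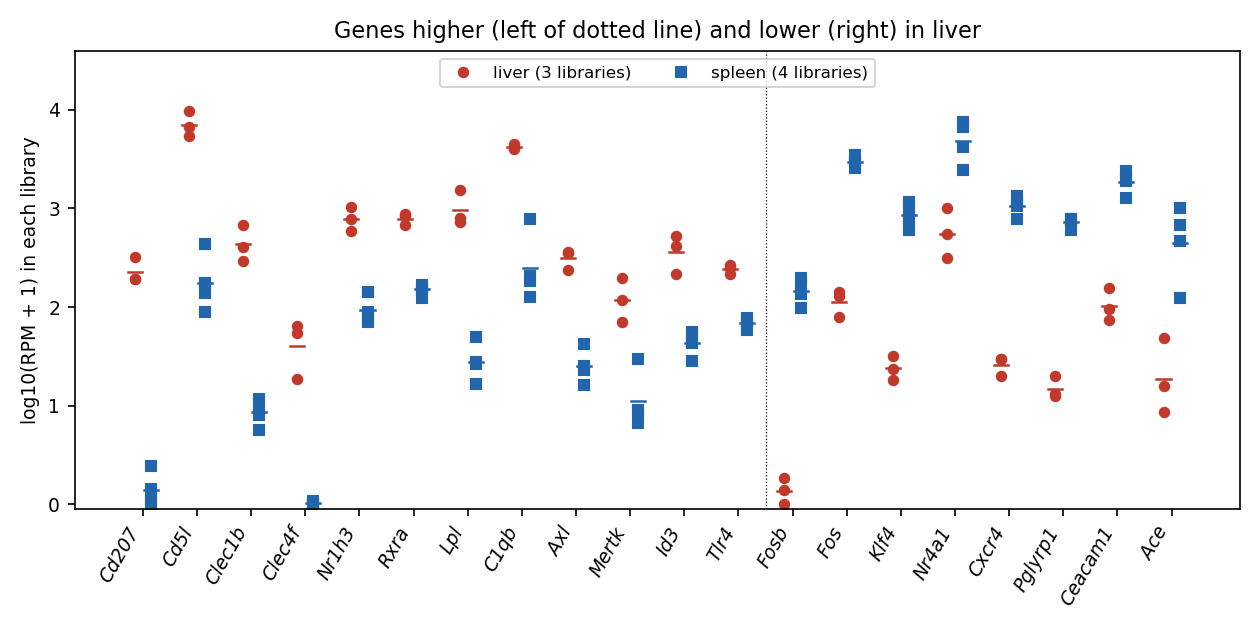
Level of 20 genes in each library as log10(RPM + 1), with liver libraries as red circles, spleen libraries as blue squares and short bars at the means of the logarithms. In the 12 genes on the left every liver library lay above every spleen library, and in the 8 on the right every liver library lay below. The 20 genes were picked and placed by their direction, so this separation was fixed by the choice. Over all tested genes, the liver libraries lay above without overlap for 21.4% and below for 24.2%.

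Receptors and bridging proteins of apoptotic cell clearance and complement genes were more often higher in liver than all genes tested, and about as often lower. Axl and Mertk are kinases that bind apoptotic cells through Gas6 and protein S. Axl was at 359, 353 and 237 RPM against 41.3, 15.2, 22.1 and 24.4 RPM (3.66 ± 0.29, adjusted p = 0.000135), and Mertk was at 196, 117 and 68.8 RPM against 28.7, 5.68, 7.73 and 8.03 RPM (3.42 ± 0.51, adjusted p = 0.00159). Their ligand Gas6 was called but low, at 1.69, 2.8 and 16.9 RPM against 0.356, 0.142, 0.213 and 0.141 RPM. The scavenger receptor Stab1 was at 92.3, 57.5 and 183 RPM against 7.82, 1.35, 0.355 and 0.845 RPM (5.26 ± 0.64, adjusted p = 0.000663). Stab2, shared with the endothelial list, was at 9.16, 15.6 and 56.5 RPM in liver and 0 in all spleen libraries. Anxa1, which encodes annexin A1, was lower in liver, at 9.24, 10.7 and 25 RPM against 897, 636, 139.9 and 172 RPM (-4.53 ± 0.66, adjusted p = 0.00139). The vitronectin receptor subunit Itgb3 was lower too (6.16, 6.54 and 6.36 RPM against 34.6, 93, 199 and 192 RPM). Anxa1 was highest in spleen replicates 1 and 2, as the neutrophil markers were. In all, 9 of 24 genes were higher (37.5%, against 18.4% of all genes) and 5 lower (20.8%, against 17.6%; with Cd36, Dock1 and Thbs1). The 9 became 4 without liver replicate 3 and the 5 became 3 without liver replicate 2. Of the 24, 3 were under 1 RPM in every spleen library, Gas6 and Stab2 among them. They could only be higher, and they failed the filter when a liver library was left out. The complement component C1qb was at 4025, 4529.9 and 4145 RPM against 784, 206, 125 and 182 RPM (4.13 ± 0.51, adjusted p = 0.000731), with a spleen range set by replicate 1. The mannose receptor Mrc1 was at 382, 99.2 and 159 RPM against 33.8, 17, 17.5 and 28.5 RPM (2.95 ± 0.45, adjusted p = 0.00166). Of 16 complement genes, 7 were higher (43.8%) and 3 lower (18.8%, C5ar1 and the gate gene Itgam among them), with a median of 1.42. The 7 became 3 without liver replicate 3. Of the 16, 2 were under 1 RPM in every spleen library. These could only be higher, and they too failed the filter when a liver library was left out.

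Genes of the Notch and TGF-beta/BMP pathways, which carry the niche signals of KCs, gave 15 of 33 higher (45.5%) and 5 lower (Hes1, Notch2, Smad3, Jag1 and Maml1), with a median of 0.64. Among the 33, 2 were under 1 RPM in every spleen library, so they could only be higher. Smad6 and Smad7 are inhibitors that BMP and TGF-beta signals induce. Smad6 was at 13.2, 29.2 and 25.1 RPM against 0.711, 0.71, 1.92 and 1.27 RPM (3.43 ± 0.33, adjusted p = 0.000254), and Smad7 was at 28.1, 77 and 68.6 RPM against 21.8, 22.9, 17.5 and 13.9 RPM (1.48 ± 0.34, adjusted p = 0.00984). The call of Smad7 did not hold with Xist as a covariate (1.23, adjusted p = 0.173). The co-receptor Eng was at 98.2, 95.6 and 397 RPM against 11.6, 8.16, 5.32 and 5.0 RPM, highest in liver replicate 3 as the endothelial markers were. Id1, a target of the same signals, did not pass (13.8, 22.3 and 29.9 RPM against 17.3, 11, 12.4 and 9.65 RPM, adjusted p = 0.0681) except without spleen replicate 1 (0.87, adjusted p = 0.0434) or liver replicate 1 (1.04, adjusted p = 0.0197). The Notch ligand Jag1 was lower in liver (2.31, 1.87 and 5.51 RPM against 17.7, 55.9, 61.7 and 47.6 RPM, -3.4 ± 0.49, adjusted p = 0.00136).

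Lysosomal genes were more often higher than lower in liver. Of 58 hydrolases, cathepsins and membrane proteins tested, 23 were higher (39.7%) and 6 lower, with a median of 0.49. The list summed to 37070 to 41700 RPM in liver and 21710 to 23890 RPM in spleen. The aspartic protease Ctsd was at 8372, 5185 and 5974 RPM in liver and 1605, 1178, 980.0 and 1145 RPM in spleen (2.43 ± 0.24, adjusted p = 0.000268). The cysteine protease Ctsl was at 386, 272 and 443 RPM against 199, 91.1, 72.2 and 80.7 RPM (1.85 ± 0.33, adjusted p = 0.00365). Acp5, the tartrate-resistant acid phosphatase, was at 1498, 2524 and 3153 RPM against 719, 439, 323 and 367 RPM (2.4 ± 0.32, adjusted p = 0.000996). Ctsb and Ctss did not pass (adjusted p = 0.198 and 0.735). Ctse was lower (10.9, 1.01 and 3.06 RPM against 97.1, 40.7, 10.9 and 13.1 RPM, -2.62 ± 0.80, adjusted p = 0.0318), a call lost without spleen replicate 2 (-2.45, adjusted p = 0.079) or liver replicate 2 or 3 (-1.99 and -2.55, adjusted p = 0.116 and 0.0926). The 6 lower calls fell to 3 without spleen replicate 2 or 4 or liver replicate 2, and to 2 without liver replicate 3.

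Promoters of the lysosomal genes are shown because many such genes carry the CLEAR element (TCACGTGA), bound by the factor TFEB. The 300 bases from 250 before to 50 after the start site were taken from RefSeq (GRCm38.p6) and were found for 44 of the 58 tested genes. On either strand, 6 of the 44 held the element, against 1.12% of the promoters of 27025 genes. The 6 did not move together: 2 were higher in liver (Ctsd and Atp6v1a), 2 lower (Cln3 and Atp6v0d1) and 2 not called (Ctsa and Mcoln1). The promoters of Ctsd (chr7:142387778-142388077, minus strand; log2 fold change 2.43) and of Cln3, which encodes a lysosomal membrane protein (chr7:126583187-126583486, minus strand; -0.89), both held it upstream of the start site, in capitals:
Ctsd: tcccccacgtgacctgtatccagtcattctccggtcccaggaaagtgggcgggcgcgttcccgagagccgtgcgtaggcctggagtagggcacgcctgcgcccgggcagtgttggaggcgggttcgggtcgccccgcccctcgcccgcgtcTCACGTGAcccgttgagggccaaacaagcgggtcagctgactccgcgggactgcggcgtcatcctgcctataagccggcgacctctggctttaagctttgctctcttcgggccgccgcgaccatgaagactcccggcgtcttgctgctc
Cln3: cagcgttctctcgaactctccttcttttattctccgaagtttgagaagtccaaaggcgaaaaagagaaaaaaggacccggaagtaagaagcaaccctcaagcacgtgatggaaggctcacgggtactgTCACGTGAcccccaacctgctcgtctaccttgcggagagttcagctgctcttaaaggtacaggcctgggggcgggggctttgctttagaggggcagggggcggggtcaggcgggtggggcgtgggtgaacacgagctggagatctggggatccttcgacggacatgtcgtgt

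A list of Toll-like receptors with their chaperones, co-receptors and partner proteins gave 11 of 32 genes higher in liver (34.4%) and 2 lower (Tlr6 and Traf3), with a median of 0.30. The list summed to 9954 to 10990 RPM in liver and 5014 to 5201 RPM in spleen. Tlr4, the lipopolysaccharide receptor, was at 267, 216 and 248 RPM against 76.5, 70.1, 57.1 and 68.3 RPM (1.86 ± 0.15, adjusted p = 0.000135). Of the nucleic acid receptors, Tlr3 was at 24.4, 30.7 and 39.7 RPM against 6.4, 8.52, 2.91 and 3.73 RPM (2.44 ± 0.32, adjusted p = 0.000967) and Tlr9 at 121, 90.2 and 92.8 RPM against 67.2, 46.8, 31.9 and 37.6 RPM (1.2 ± 0.23, adjusted p = 0.00487). Lgmn, a protease that processes endosomal receptors, was at 1340.3, 846 and 666 RPM against 134, 137, 178 and 162 RPM (2.61 ± 0.25, adjusted p = 0.000231). Tlr2 did not pass (13.4, 10.4 and 9.49 RPM against 15.4, 13.3, 21.6 and 19.4 RPM, adjusted p = 0.0855). The X-linked Toll-like receptors, Tlr13 among them, were outside the rule. Of 16 Fc receptor genes, 3 were higher (18.8%, near the 18.4% of all genes) and 1 lower (Fcgr2b). The higher ones were Fcrl5, Cd72, an inhibitory lectin (771, 1986 and 1726 RPM against 635, 344, 335 and 386 RPM, 1.78 ± 0.35, adjusted p = 0.00505), and Fcgr1, the high-affinity IgG receptor (539.8, 379.6 and 182 RPM against 108, 79.5, 79.2 and 102 RPM, 1.89 ± 0.32, adjusted p = 0.00263). Fcrl5 overlapped between organs (255, 818 and 450.0 RPM against 271, 136, 164 and 194 RPM). Its call (1.32 ± 0.37, adjusted p = 0.0227) was lost without spleen replicate 2 or 3 (1.16 and 1.28, adjusted p = 0.062 and 0.0558) or liver replicate 2 or 3 (0.94 and 1.3, adjusted p = 0.0702 and 0.0695).

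Genes of patrolling monocytes were lower in liver. Of 28 tested, 17 were lower (60.7%, against 17.6% of all genes) and none higher, with a median log2 fold change of -1.45. With Xist as a covariate 7 were lower. Nr4a1, on which these monocytes depend and which is also an immediate early gene, was at 310.4, 1008 and 549 RPM in liver and 2449, 4189, 7614 and 6751 RPM in spleen (-3.08 ± 0.50, adjusted p = 0.00236), a call that did not hold with Xist as a covariate (-2.85, adjusted p = 0.0656). Pglyrp1, a peptidoglycan-binding protein, was at 18.8, 11.4 and 12.1 RPM against 784, 781, 776 and 598 RPM (-5.6 ± 0.19, adjusted p = 9.99e-06). The adhesion molecule Ceacam1 was at 153, 93.8 and 73.3 RPM against 1276, 1908, 2076 and 2418 RPM (-4.16 ± 0.31, adjusted p = 0.000111). Ace, the angiotensin-converting enzyme, was at 47.6, 14.9 and 7.58 RPM against 122, 469, 1012 and 679 RPM (-4.54 ± 0.79, adjusted p = 0.00312), which with Xist as a covariate gave -4.59 (adjusted p = 0.0623). In wild-type hepatic Ly6C-low macrophages the means were 5938 ± 791 RPM for Nr4a1, 1101 ± 134 RPM for Ceacam1 and 519 ± 78.2 RPM for Ace. The fractalkine receptor Cx3cr1 was at 29.6, 18.5 and 12.2 RPM against 32.7, 79.1, 121 and 108 RPM and did not overlap (-1.93 ± 0.48, adjusted p = 0.0143), but its call was lost without liver replicate 3 (-1.66, adjusted p = 0.0617). Treml4 did not pass (1056, 1139 and 1204 RPM against 872, 1548, 1715 and 1828 RPM, adjusted p = 0.433), except without spleen replicate 1 (-0.59, adjusted p = 0.0308).

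Of 24 classical monocyte genes, 18 were lower in liver (75.0%) and 1 higher, with a median of -2.26. Of the list, 13 were lower without spleen replicates 1 and 2, when 2 genes under 1 RPM in every liver library could not be tested. Those with the largest difference, Cd177 (0.539, 0.856 and 0.919 RPM against 423, 224, 44.5 and 28.7 RPM), Hp (24.9, 5.37 and 3.06 RPM against 571, 334, 275 and 263 RPM), Fcnb (0, 0.078 and 0 RPM against 169, 97.8, 13.8 and 8.53 RPM) and Mmp8 (4.39, 13.3 and 4.98 RPM against 1149.5, 385, 85.2 and 75.7 RPM), are also genes of neutrophils and their precursors. Each was highest in spleen replicates 1 and 2, the libraries with the highest neutrophil marker sums given above, and the part of granulocyte RNA in them was not tested. The 1 higher gene was Cd44, an adhesion receptor. The chemokine receptor Ccr2, which defines classical monocytes, overlapped between organs (43.3, 8.56 and 6.28 RPM against 36.1, 16.5, 5.82 and 6.2 RPM, 0.15, adjusted p = 0.888). Lyz2, the macrophage lysozyme, was at 5939.6, 777 and 832 RPM against 8338, 9962, 6753 and 6869 RPM (-2.3 ± 0.65, adjusted p = 0.0238), with liver replicate 1 close to the spleen. Its call was lost without spleen replicate 2 (-2.2, adjusted p = 0.0607) or without liver replicate 2 or 3 (-1.75 and -1.87, adjusted p = 0.0908 and 0.0936).

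**Figure D4:**
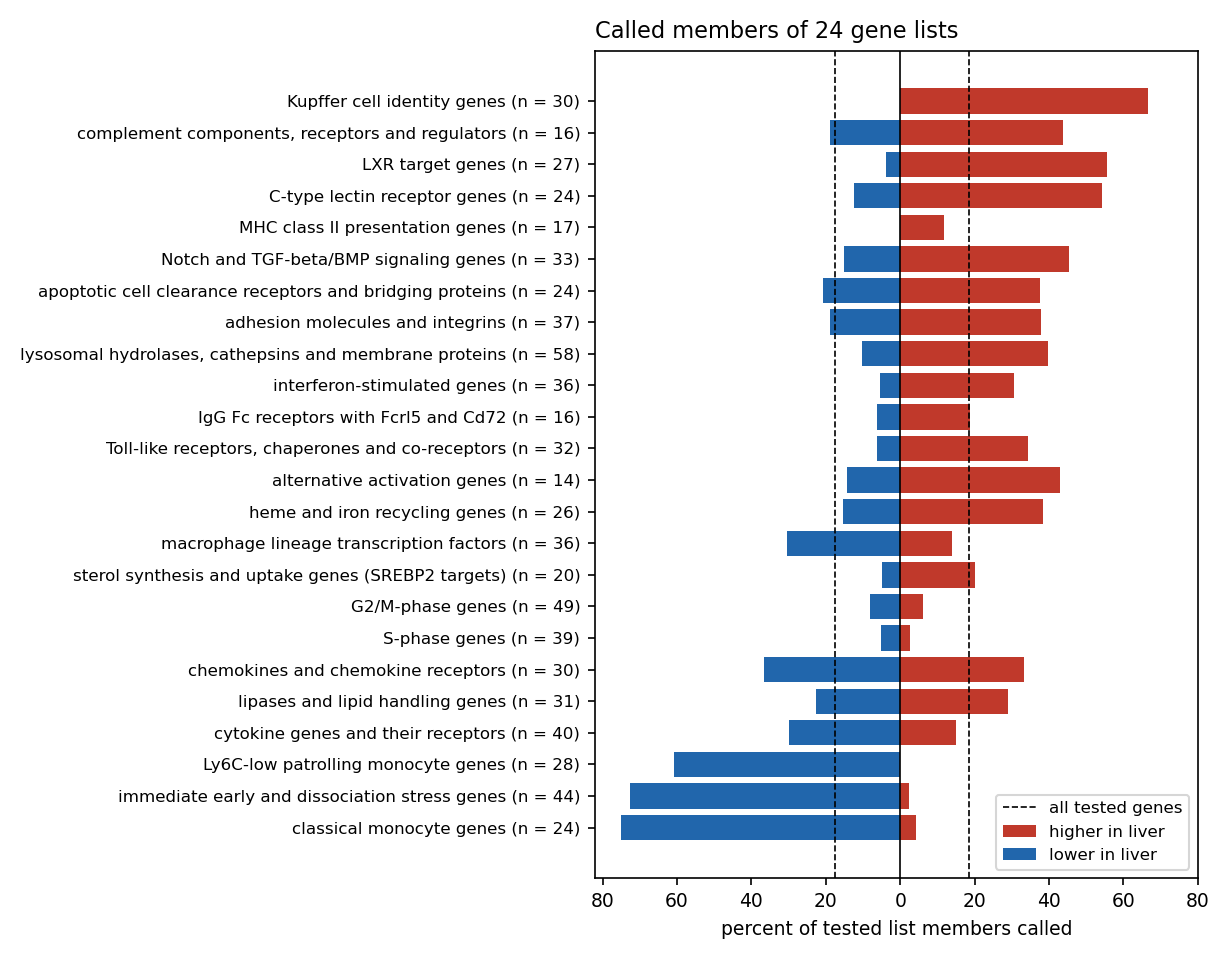
Percent of the tested members of 24 gene lists that were called higher (red, to the right) or lower (blue, to the left) in liver, ordered by the median log2 fold change, with dashed lines at the 18.4% and 17.6% of all tested genes. KC identity genes reached 66.7% on the higher side, and classical monocyte, immediate early and patrolling monocyte genes reached 75.0%, 72.7% and 60.7% on the lower side.

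Most list counts were smaller once Xist entered the model: of 33 list counts of at least 5 genes, 9 stayed within 1.5-fold with Xist as a covariate, and none of the others grew. LXR targets then gave 9 higher, lysosomal genes 10, the Toll-like receptor list 5, niche signalling genes 8, C-type lectins 7, adhesion genes 3 and chemokine genes 2. Classical monocyte genes gave 8 lower, lineage factors 6, and the cytokine and chemokine lists 5 each.

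Immediate early and dissociation stress genes, which cells switch on within minutes of stimulation or handling, were lower in liver for 32 of 44 tested (72.7%) and higher for 1, with a median log2 fold change of -2.07. With Xist as a covariate 25 were lower. Among the 44, 2 were under 1 RPM in every liver library, so they could only be lower. Fos was at 78.1, 140.3 and 129 RPM in liver and 3482, 2908, 2584 and 3024 RPM in spleen (-4.69 ± 0.22, adjusted p = 2.38e-05). Fosb, of the same AP-1 family, was at 0.847, 0.389 and 0 RPM against 194, 133, 169 and 97.1 RPM (-6.71 ± 0.28, adjusted p = 2.38e-05), and Jun, the partner of both, was at 89.8, 57.3 and 99.7 RPM against 1232, 1369.8, 1293 and 1476 RPM (-4.02 ± 0.23, adjusted p = 5.13e-05). Klf4, a zinc-finger factor of monocytes, was at 22.7, 31 and 17.2 RPM against 598, 775, 1155 and 1025 RPM (-5.14 ± 0.28, adjusted p = 4.45e-05). Egr1, a further zinc-finger factor, was at 53.3, 51.8 and 66.5 RPM against 649, 516, 399 and 366 RPM (-3.00 ± 0.20, adjusted p = 7.47e-05), and the MAP kinase phosphatase Dusp1 at 46.5, 144 and 94.1 RPM against 2046, 2052, 2845 and 2748 RPM (-4.76 ± 0.35, adjusted p = 0.000106). No library overlapped between organs for these genes. The list summed to 4045 to 5870 RPM in liver and 23960 to 33640 RPM in spleen. Wild-type Ly6C-low macrophages had 42810 to 58540 RPM in liver and 26420 to 32260 RPM in spleen. Wild-type KCs were near the Rnaset2-/- liver libraries, at 5172 to 6562 RPM. Rnaset2-/- Ly6C-high macrophages had 7651 to 13790 RPM in liver and 13680 to 17500 RPM in spleen. Wild-type hepatic means were 4666 ± 1417 RPM for Fos and 284 ± 46.7 RPM for Fosb, far above the Rnaset2-/- liver libraries. The 1 gene higher in Rnaset2-/- liver was the heat shock gene Hspa1a. Time from dissection to lysis is not given in the sources used here for each library, and its part in these values was not tested.

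Promoters of the immediate early list are shown because many of these genes respond through the cAMP response element (TGACGTCA), bound by CREB. Promoters of the same length were found for 36 of the 44 tested genes. The element occurred in 5 of the 36, against 2.03% of all 27025, and of the 5, Dusp1, Btg2, Plk2 and Ppp1r15a were lower in liver and Maff was not called. The promoters of Dusp1 (chr17:26508423-26508722, minus strand; log2 fold change -4.76) and of Ppp1r15a, which encodes a stress-induced phosphatase subunit (chr7:45526219-45526518, minus strand; -4.15), held it in capitals:
Dusp1: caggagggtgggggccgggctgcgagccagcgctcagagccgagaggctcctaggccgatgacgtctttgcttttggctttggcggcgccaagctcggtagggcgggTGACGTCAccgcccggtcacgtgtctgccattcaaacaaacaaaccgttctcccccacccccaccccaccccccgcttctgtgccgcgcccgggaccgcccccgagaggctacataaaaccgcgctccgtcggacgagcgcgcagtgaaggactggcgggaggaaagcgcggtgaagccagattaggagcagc
Ppp1r15a: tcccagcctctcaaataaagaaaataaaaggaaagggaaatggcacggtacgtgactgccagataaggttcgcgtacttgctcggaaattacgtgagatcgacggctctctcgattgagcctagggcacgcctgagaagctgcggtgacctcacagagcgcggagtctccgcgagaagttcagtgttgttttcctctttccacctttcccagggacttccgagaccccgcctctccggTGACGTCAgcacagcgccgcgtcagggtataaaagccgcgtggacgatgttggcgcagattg

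In all, 8 motifs were searched on both strands in 5 lists: the CLEAR and cAMP response elements, the AP-1 site (TGACTCA, 5.95% of all promoters), the E-box (CACGTG, 8.09%, which the CLEAR element contains), the PU.1 site (GAGGAAGT, 3.69%), the sterol regulatory element (TCACNCCAC, 1.44%), the interferon-stimulated response element and the LXR element. The interferon-stimulated response element was held by 15 of 27 matched ISGs against 3.99% of all promoters, and the LXR element by 0 of 19 matched LXR target genes against 0.0148%. The AP-1 site was held by none of the 36 immediate early promoters and 2 of 24 matched KC promoters. Which promoters to print was decided after these counts were seen, and a match is a description of the letters only.

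Of 40 cytokine and receptor genes, 12 were lower in liver (30%, against 17.6% of all genes) and 6 higher (15%, below the 18.4% of all genes), with a median of -0.23. Among the 40, 3 were under 1 RPM in every liver library, so they could only be lower. DESeq2 called 10 higher. Il10 was at 46.7, 41.1 and 48.8 RPM in liver and 80.4, 55.8, 157 and 167 RPM in spleen, without overlap (-1.15 ± 0.40, adjusted p = 0.049). Its call was lost without spleen replicate 3 or 4 (-0.94 and -0.90, adjusted p = 0.115 and 0.108) and without any of liver replicates 1 to 3 (-1.17, -1.04 and -1.23, adjusted p = 0.0923, 0.14 and 0.0959). The difference of Il10 was -0.23 with Xist as a covariate (adjusted p = 0.777), and against the spleen library without Xist it was -0.26 (adjusted p = 0.618). Tnf was low in both (4.46, 2.72 and 0.995 RPM against 0.711, 0.71, 0.78 and 1.06 RPM, 0.94, adjusted p = 0.0602) and was called without liver replicate 3 (1.32, adjusted p = 0.0165), by edgeR's quasi-likelihood test (1.73, adjusted p = 0.0331) and by DESeq2 (1.76, adjusted p = 0.0206). Il18 was higher (154, 87.5 and 106 RPM against 27.6, 13.6, 17.1 and 17.3 RPM, 2.59 ± 0.27, adjusted p = 0.000336). Osm, which encodes oncostatin M, was lower (1.39, 0.623 and 1.07 RPM against 101, 42.7, 65 and 48.9 RPM, -4.93 ± 0.30, adjusted p = 5.81e-05). Il6 was below the filter, at 0.077 to 0.623 RPM in liver and 0.634 to 2.63 RPM in spleen (exact permutation test, two-sided, p = 0.0571). Ifnb1 was at no more than 0.285 RPM in any library (p = 0.514, exact).

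Of 30 chemokines and chemokine receptors, 10 were higher (33.3%) and 11 lower (36.7%). Among the 30, 2 under 1 RPM in every spleen library could only be higher, and 1 under 1 RPM in every liver library only lower. Cxcr4, the receptor that holds cells in marrow and spleen, was at 28.6, 18.8 and 28.9 RPM in liver and 776, 1212, 1328 and 1050.0 RPM in spleen (-5.34 ± 0.26, adjusted p = 2.38e-05), while wild-type hepatic Ly6C-low macrophages had 3152 ± 591 RPM. Ccl3 and Cxcl2 attract leukocytes and are induced with the immediate early genes. Ccl3 was at 196, 197 and 351 RPM against 1021, 1999.8, 2452 and 3234 RPM (-3.04 ± 0.43, adjusted p = 0.00126) and Cxcl2 at 2.54, 0.389 and 0.306 RPM against 111, 57.6, 42.9 and 56.2 RPM (-5.08 ± 0.41, adjusted p = 0.000135). The interferon-gamma-induced Cxcl9 was higher in liver (1879.8, 127 and 386 RPM against 37.6, 10.1, 7.45 and 6.9 RPM, 5.15 ± 0.87, adjusted p = 0.00273), which was highest in replicate 1 of each organ. Among 36 interferon-stimulated genes (ISGs), 11 were higher (30.6%) and 2 lower (Oas3 and Sp100), with a median of 0.36. The higher ones included guanylate-binding proteins and immunity-related GTPases such as Gbp2 (455, 131 and 92.9 RPM against 15.1, 8.16, 32 and 46 RPM, 3.05 ± 0.68, adjusted p = 0.00907), Gbp3 (2.44) and Igtp (2.92), each highest in liver replicate 1. The count became 7 without that library, and also 7 without spleen replicates 1 and 2. Rsad2, Ifih1, Mx1 and Oas1a, antiviral ISGs, did not pass (0.05, 0.36, 0.61 and -0.34, adjusted p = 0.952, 0.36, 0.453 and 0.366). Rsad2 was called without spleen replicate 1 (0.59, adjusted p = 0.0293), where it was at 104 RPM.

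MHC class II presentation genes turned on a single library. H2-Aa was at 2956, 120.2 and 177 RPM in liver and 228, 426, 222 and 174 RPM in spleen. Its transactivator Ciita was at 333, 10.7 and 16.7 RPM against 17.6, 46.1, 13.6 and 9.23 RPM, and the invariant chain Cd74 at 17546, 583 and 757 RPM against 1902, 2819, 1694 and 1666 RPM. In each case liver replicate 1 was far above the spleen libraries and liver replicates 2 and 3 were among or below them. Of 17 genes 2 were higher, Lgmn and Ifi30 (a thiol reductase of antigen processing, 1957, 1181 and 1046 RPM against 842, 639, 498 and 438 RPM, 1.23 ± 0.27, adjusted p = 0.00826), and none lower. For Cd74 the organs differed by 0.04 ± 1.04 on the log2 scale (adjusted p = 0.982) with all libraries and by -1.53 (adjusted p = 0.00488) without liver replicate 1, where it was called lower. Liver replicate 1 also differed from its group in Pla2g7 (586, 28.3 and 35.8 RPM), a phospholipase, and in C5ar1 (27.6, 0.934 and 0.995 RPM), the C5a receptor. Both were called lower (-2.91 and -2.77), and lost the call without any 1 of 5 and of 6 libraries, at adjusted p of 0.0716 to 0.129 and 0.0525 to 0.123.

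Heme and iron recycling genes gave 10 of 26 higher (38.5%, against 18.4% of all genes), with a median of 0.23. The 4 lower ones were Bach1, Pcbp1, Lcn2 and Hp (15.4%, below the 17.6% of all genes). Lcn2 is also 1 of the neutrophil markers, and Hp was described above with the genes of neutrophils. The iron exporter Slc40a1 was at 678, 175 and 146 RPM against 167, 41.4, 35.5 and 44.2 RPM (2.18 ± 0.64, adjusted p = 0.0264). Spleen replicate 1 overlapped with the liver, and the call was lost without spleen replicate 2, 3 or 4 or liver replicate 1 (1.49 to 2.08, adjusted p = 0.0619 to 0.0697). The heme-binding protein Hebp1 was at 496, 532 and 556 RPM against 221, 56.5, 33.1 and 38.8 RPM (3.06 ± 0.54, adjusted p = 0.00338). The heme oxygenase Hmox1 overlapped (1528, 930.1 and 770.3 RPM against 753, 622, 978 and 1295 RPM, adjusted p = 0.559). C-type lectin receptors, Cd207, Clec4f, Clec1b and Clec4g among them, gave 13 of 24 higher (54.2%) and 3 lower (Clec4d, Clec4e and Cd69), with a median of 0.98. Among the 24, 2 were under 1 RPM in every spleen library, so they could only be higher. Adhesion molecules and integrins gave 14 of 37 higher (37.8%) and 7 lower (18.9%, near the 17.6% of all genes), with a median of 0.58. The 14 became 9 without liver replicate 2. Among the 37, 2 were under 1 RPM in every spleen library, so they could only be higher. Siglec1, the sialoadhesin of resident macrophages, was at 357, 131 and 70.1 RPM against 5.48, 2.56, 4.33 and 4.72 RPM (4.89 ± 0.48, adjusted p = 0.000272). The integrin subunit Itga9 was at 317, 426 and 281 RPM against 63.8, 21, 15.1 and 21.7 RPM (3.68 ± 0.40, adjusted p = 0.000448). Itga4, which binds VCAM1, was lower (259, 189 and 169 RPM against 363, 549, 769.7 and 711 RPM, -1.47 ± 0.30, adjusted p = 0.00637). Alternative activation genes gave 6 of 14 higher (42.9%) and 2 lower (F13a1 and Serpinb10; 14.3%, below the share of all genes), with a median of 0.27. Few cell cycle genes passed: 1 of 39 S-phase genes was higher (Wdr76) and 2 lower (Slbp and Usp1), and 3 of 49 G2/M-phase genes were higher (Anp32e, Anln and G2e3) and 4 lower (Tmpo, Hjurp, Rangap1 and Ctcf), shares below those of all genes. Mki67 was at 43.6, 38.7 and 24.7 RPM in liver and 78, 41.7, 10.5 and 13 RPM in spleen (adjusted p = 0.606). Without spleen replicates 1 and 2 it was called (1.45, adjusted p = 0.00774), with 18 G2/M-phase genes then higher. The 4 lower G2/M-phase calls became 2 without liver replicate 3. Anln lost its call without any 1 of 5 libraries, and Tmpo without any 1 of 3.

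Markers of other cell types moved with the organ. All 15 neutrophil and granulocyte precursor markers were tested, and 14 were lower in liver; 9 of the 15 were under 1 RPM in every liver library. Ngp was at 2.0, 4.51 and 0.689 RPM in liver and 17331, 9998, 1764 and 1130.2 RPM in spleen (-10.46 ± 0.90, adjusted p = 0.00016). S100a9 was at 3.62, 4.59 and 0.459 RPM against 11952, 6861, 1389 and 1274 RPM (-10.01 ± 0.81, adjusted p = 0.000135). S100a8, Ltf, Camp, Retnlg, Lcn2 and Mmp9 were among the 10 genes with the largest lower level too, with log2 fold changes of -8.57, -9.14, -8.75, -8.61, -7.61 and -6.75. Wild-type splenic Ly6C-low macrophages had marker sums of 1150 to 2591 RPM. Without spleen replicates 1 and 2, 6 markers were still called. The 9 under 1 RPM in every liver library could not be tested then, since fewer than 3 libraries were above the filter. Of 7 mast cell, basophil and eosinophil markers, 4 of which were under 1 RPM in every liver library, 6 were lower, led by the eosinophil protein Prg2 (9.24, 0.389 and 0.689 RPM against 269, 379.8, 204 and 486 RPM, -6.76 ± 0.66, adjusted p = 0.000257).

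Hepatocyte markers were low in the liver libraries and nearly absent in spleen, with sums of 96.2, 15.6 and 39.9 RPM in liver replicates 1 to 3, at most 1.71 RPM in spleen and 1868 to 6033 RPM in KCs. Albumin (Alb) was at 48.3, 8.09 and 20.3 RPM in liver and 0 in all spleen libraries, at least 120.2-fold higher than the floor of 3 reads. Of the 13 autosomal members 3 passed the filter, 2 of them with no spleen library at 1 RPM, so nothing is read from their direction. Of 9 T-cell markers 5 were higher (Cd3e, 25.7, 10.9 and 15.1 RPM against 0.711, 1.92, 1.84 and 1.2 RPM). The list summed to 55.02 to 216 RPM in liver and 15.2 to 54 RPM in spleen. Of 11 B-cell markers, 4 of which were under 1 RPM in every spleen library, 5 were higher (Cd79b, Pax5, Fcer2a and Cr2 among them) and 2 lower (Jchain and Mzb1), with sums of 215 to 546 RPM in liver and 253 to 1533 RPM in spleen. The higher count became 1, 2 and 0 without liver replicates 1, 2 and 3. The 4 B-cell markers under 1 RPM in every spleen library could not be tested then, since fewer than 3 libraries were above the filter. Cd79b lost its call without any 1 of 5 libraries. Jchain, which joins secreted antibodies, was lower (2.39, 0.934 and 12.9 RPM against 493, 1220.2, 180.0 and 156 RPM, -6.3 ± 0.84, adjusted p = 0.000969). Of 9 conventional dendritic cell markers 3 were higher (Clec9a, Batf3 and Xcr1), with Xcr1 at 120.4, 65.6 and 108 RPM against 11.7, 33.1, 3.12 and 5.0 RPM. Of 10 NK-cell markers 1 was higher (Gzmb). Erythroid markers gave 3 of 8 lower (Car1, Car2 and Hemgn), with sums of 37.4 to 109 RPM in liver and 89.9 to 1165 RPM in spleen. The remaining lists gave 1 of 6 platelet markers lower (Itgb3), 2 of 7 plasmacytoid dendritic cell markers higher (Cox6a2 and Bst2) and 1 lower (Runx2), and 3 of 9 red pulp macrophage markers higher (Adgre1, Slc40a1 and C6). The calls of Bst2 and Runx2 were each lost without any 1 of 6 libraries, and that of Car2 without any 1 of 4. Of 2 cholangiocyte markers 1 was lower (Krt7), and of 2 stellate cell and fibroblast markers 1 was higher (Dcn) and 1 lower (Pdgfrb). The part of these cells in the differences between organs was not tested.

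**Figure D5:**
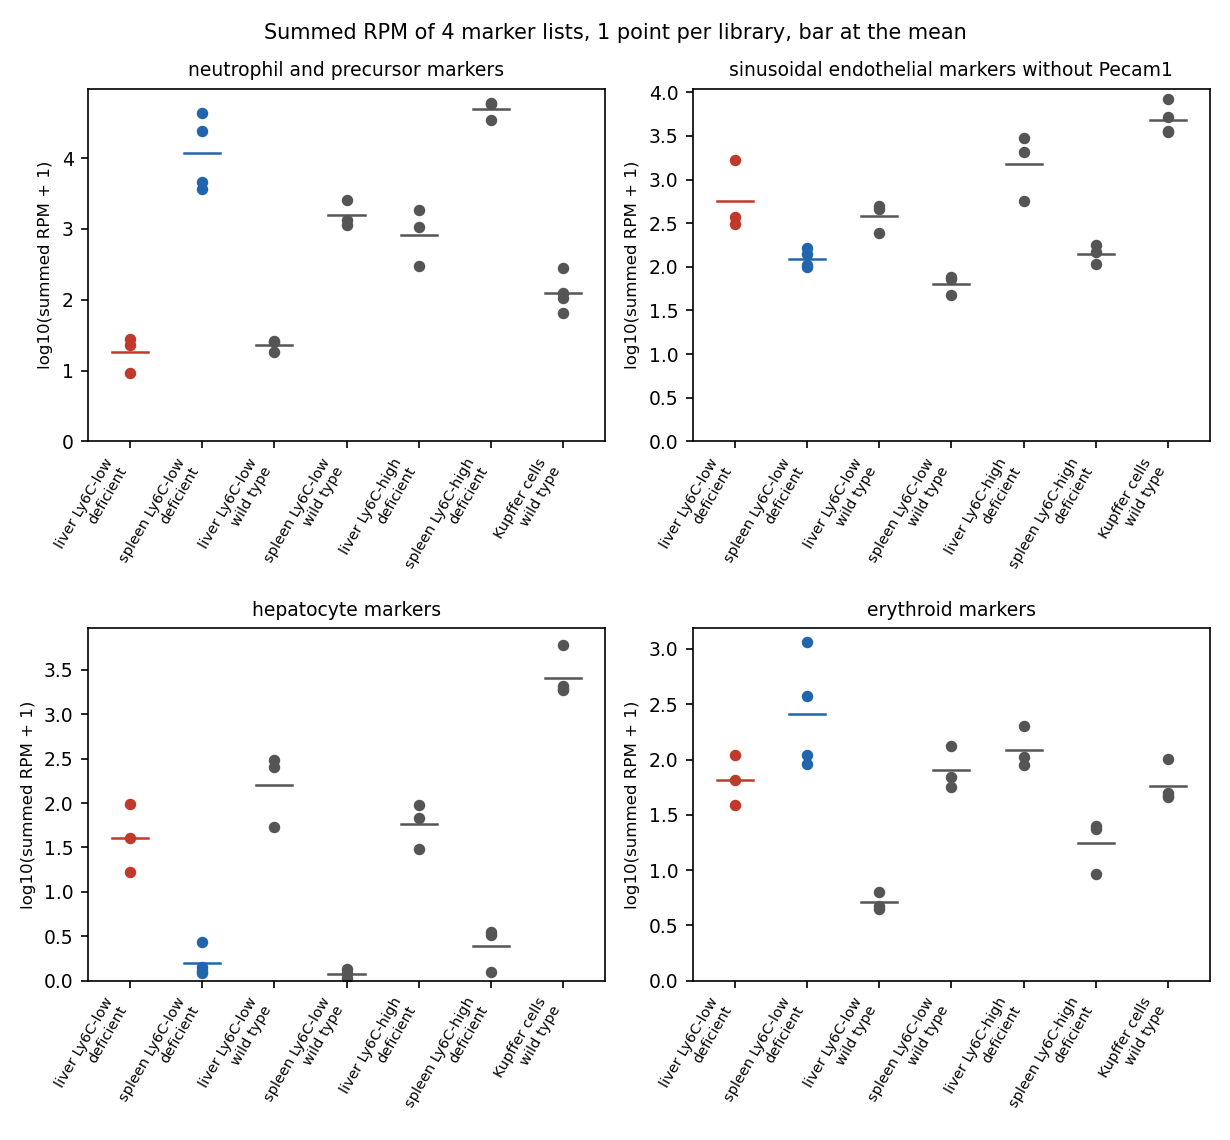
Summed RPM of markers of neutrophils and their precursors, sinusoidal endothelium without Pecam1, hepatocytes and erythroid cells on a log10 axis, with 1 point per library and a bar at the mean of each of 7 groups. Neutrophil markers summed to 8.27 to 26.8 RPM in hepatic (red) and 3694 to 43880 RPM in splenic (blue) Rnaset2-/- Ly6C-low macrophages, and hepatocyte markers to 15.6 to 96.2 RPM and at most 1.71 RPM.

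The organ difference of Rnaset2-/- Ly6C-low macrophages was then set against that of wild-type Ly6C-low macrophages by an interaction term over 13 libraries. The difference (liver minus spleen) was larger in Rnaset2-/- cells for 1323 of 10869 genes (12.2%) and smaller, or more negative, for 1597 (14.7%). It was larger for Nr1h3 by a log2 value of 2.77 ± 0.32 (adjusted p = 7.59e-05), for Rxra by 2.22 ± 0.30 (adjusted p = 0.000217), for Cd5l by 4.45 ± 0.58 (adjusted p = 0.000173) and for Timd4 by 3.85 ± 0.78 (adjusted p = 0.00319). Wild-type Ly6C-low macrophages had 43.3 ± 7.09 RPM of Nr1h3 in liver and 35.7 ± 3.4 RPM in spleen, and 54.8 ± 13.8 RPM and 30.2 ± 9.8 RPM of Cd5l. Axl, Mertk, Clec4f and Cd207 had interactions of 1.4 ± 0.37, 1.88 ± 0.63, 2.29 ± 0.62 and 1.81 ± 0.43 (adjusted p = 0.0139, 0.0421, 0.0154 and 0.00779), whereas C1qb was not called (0.82 ± 0.64, adjusted p = 0.377), with wild-type means of 628 ± 172 RPM in liver and 64.4 ± 10.4 RPM in spleen. For Il10 the interaction was -3.58 ± 0.67 (adjusted p = 0.00198): wild-type means were 39 ± 21.7 RPM in liver and 5.9 ± 1.48 RPM in spleen, the reverse order of the Rnaset2-/- cells. Cx3cr1, Ccr2 and Tnf had negative interactions (-1.87 ± 0.60, -2.5 ± 0.87 and -1.43 ± 0.41, adjusted p = 0.0332, 0.0469 and 0.0207). Xist was present in all 6 wild-type libraries (375 to 695 RPM), of which liver replicates 2 and 3 also held Y-linked RNA (52.03 and 51.99 RPM). Sex and the interaction could thus be separated only through Rnaset2-/- spleen replicate 2. With Xist as a covariate, a choice made after the data were seen, 779 interactions were positive and 978 negative. Those of Nr1h3, Rxra, Cd5l, Timd4, Axl, Mertk and Il10 kept the call. Those of Clec4f (2.31, adjusted p = 0.073), Cd207 (1.76, adjusted p = 0.0523), Cx3cr1 (-1.9, adjusted p = 0.119), Ccr2 (-2.87, adjusted p = 0.102) and Tnf (-1.34, adjusted p = 0.111) did not.

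Against Ly6C-high macrophages of the same genotype, the organ difference of Ly6C-low cells was larger for 1488 of 10958 genes (13.6%) and smaller or more negative for 1444 (13.2%). Cd207 had an interaction of 4.55 ± 0.41 (adjusted p = 0.000182), Clec4f of 3.42 ± 0.55 (adjusted p = 0.00188) and Rxra of 2.29 ± 0.24 (adjusted p = 0.000326). Rnaset2-/- Ly6C-high macrophages had 6.75 ± 0.711 RPM of Cd207 in liver and 189.6 ± 20.7 RPM of Rxra in liver against 163 ± 16.5 RPM in spleen. Nr1h3, Cd5l, Axl and Mertk were not called (0.90 ± 0.48, 0.58 ± 0.68, 1.52 ± 0.63 and -1.12 ± 0.81, adjusted p = 0.177, 0.548, 0.0917 and 0.318). The level of Cd5l in the Ly6C-high cells was 219.6 ± 111 RPM in liver and 6.19 ± 2.4 RPM in spleen, below the Ly6C-low cells of the same organ. Xist was at no more than 0.154 RPM in the 3 liver Ly6C-high libraries and at 353 to 447 RPM in the 3 spleen Ly6C-high libraries. When Xist entered the model 1266 interactions were positive and 1199 negative, and those of Cd207, Clec4f and Rxra kept the call. These 3 comparisons share the Rnaset2-/- Ly6C-low libraries and are not independent of each other.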

How the data were processed

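Sorted cells were profiled by targeted RNA-seq (Ion AmpliSeq, 1 amplicon per gene, Ion Proton), and the authors deposited RPM (reads scaled to the total of each library) for 23930 genes in 29 libraries. Differences were therefore tested within each gene only. List sums, shares of reads and the place of Cd5l among other genes describe RPM across amplicons. Every deposited RPM value corresponded to whole reads within 0.1 reads (100.0% of values), so depth was recovered from the table.

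RPM values were divided by relative log expression factors, converted to log2(value + 1) and fitted with limma 3.58.1 (trend; R 4.3.3), two-sided, with Benjamini-Hochberg adjustment over all tested genes. Genes needed 1 RPM in at least 3 libraries, and a call needed more than 1.5-fold and an adjusted p below 0.05. Fold changes on this scale understate the change of low genes. Interactions were fitted the same way on 4 groups. In simulated counts for the liver and spleen comparison (10296 genes), 14 of 100 genes changed 2-fold and 88 of 100 changed 4-fold were recovered, with 4 of 10098 unchanged genes called. Only these genes were changed, and all genes shared a common dispersion (0.122), without differences in sex or granulocyte RNA. Far more genes were called in the data, so these rates may not hold for it. No library was a copy of another by a chi-square test of reads. Alternatives were an added value of 0.1, no filter, RPM without the factors, a replicate block, edgeR 4.0.16 and DESeq2 1.42.0 on recovered reads, each library left out, all genes, the presence of Xist, and all 29 libraries; leaving out spleen replicates 1 and 2, and Xist as a covariate in the interactions, were chosen after seeing the data.

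Named genes were those the study names, the 10 largest differences each way without overlap and with at least 10 RPM, the first 4 and the 4 largest called genes of each of 25 pathway lists, and the 2 most abundant genes of each of 15 marker lists. Members of small counts, Cln3 and the other promoter genes were named after their values were seen. A few genes and 1 list are not reported here. The comparison and lists were chosen with earlier results of these data known. Chromosomes came from GENCODE and RefSeq, and promoters from RefSeq GRCm38.p6.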

Additional observations from a re-analysis of the deposited data

Results flagged for a closer look

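Single libraries that stood far from the other 3 spleen libraries were found for 21 of the 178 named genes by Dixon's ratio. For normally distributed values chance exceeds its cutoff in about 1 in 20 groups, but the ratio was taken on RPM without a logarithm. Spleen replicate 1 was the highest for C1qb (784 RPM), Ctsl (199 RPM), Cxcl9 (37.6 RPM), F13a1 (319 RPM), Hebp1 (221 RPM), Itga9 (63.8 RPM), Maf (82.1 RPM), Mertk (28.7 RPM), Rsad2 (104 RPM), Slc40a1 (167 RPM), Slc4a1 (321 RPM), Spp1 (40.1 RPM), Stab1 (7.82 RPM), Vcan (80.7 RPM) and Clec4f (0.071 RPM). Several of these are macrophage genes that were higher in liver. Spleen replicate 2 stood apart for Dcn (0.497 RPM), Hpx (0.426 RPM) and Ptprb (0.142 RPM), and spleen replicate 4 for Cdh5 (0.634 RPM), Masp1 (0.07 RPM) and Pglyrp1 (598 RPM, the lowest). The values under 1 RPM rest on a few reads. For Clec4f, Dcn, Masp1 and Ptprb the other 3 spleen libraries had equal values, which fixed the ratio at 1.0.

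The organ difference (liver minus spleen, log2) differed from that of wild-type Ly6C-low macrophages by an interaction term for Axl (1.4), Cd207 (1.81), Cd5l (4.45), Clec4f (2.29), Ctla2b (5.28), Dmpk (3.87), Mertk (1.88), Nr1h3 (2.77), Rxra (2.22) and Timd4 (3.85), which were more positive in Rnaset2-/- cells. It was more negative for Ccr2 (-2.5), Cx3cr1 (-1.87), Il10 (-3.58), Ltf (-3.37), Retnlg (-4.32) and Tnf (-1.43). The adjusted p ranged from 7.59e-05 for Nr1h3 (2.77 ± 0.32, SE) to 0.0469 for Ccr2. With Xist as a covariate, Cd207, Clec4f, Ccr2, Cx3cr1 and Tnf were no longer called.

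Against Ly6C-high macrophages of the same genotype the difference was more positive for Cd207 (4.55), Clec4f (3.42), Ctla2b (4.07), Dmpk (3.44) and Rxra (2.29). It was more negative for Il10 (-2.09), Ngp (-4.14), Retnlg (-4.13) and S100a9 (-4.25). That of Ngp was no longer called with Xist as a covariate (-3.75, adjusted p = 0.0571).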

How the results depend on the processing

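The counts of genes higher and lower in liver (1878 and 1797) stayed within 1.5 times of these values under all alternatives except those that used Xist: 583 and 539 with its presence as a covariate, and 414 and 351 with the libraries without Xist only, which left 1 spleen library that was assumed to vary like the others. Leaving out 1 library gave 1312 to 2012 higher and 1410 to 1985 lower. edgeR called 1810 and 1822, and DESeq2 2007 and 1951. Replicates 1 and 3 had no Xist in liver and 664 and 611 RPM in spleen, so these numbers do not pair organs of the same animals. Replicate 2 lacked Xist in both organs, and whether it is paired is not known. Deviations of same-numbered liver and spleen libraries correlated at 0.152, -0.175 and -0.0885, too few values to settle it. A replicate block gave 1259 and 1208 calls, with 117 of 132 named calls kept. The interaction with Ly6C-high cells ranged over 960 to 1751 higher and 938 to 1965 lower when 1 library was left out; the counts were 960 and 950 without spleen Ly6C-high replicate 3, and 938 were lower without liver Ly6C-high replicate 3. The interaction with wild-type cells fell from 1323 to 779 higher and from 1597 to 978 lower with Xist as a covariate, chosen after seeing the data. No called named gene changed sign. Of the uncalled ones up to 11 changed sign under 1 alternative (without spleen replicates 1 and 2), and 1, Cd74, was then called: leaving out 1 library moved it between -1.53 and 0.96 on the log2 scale, the former without liver replicate 1 (adjusted p = 0.00488). The cause was not tested. Depth limited genes near 3 reads, such as Ifnb1.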
